A study of Mus musculus with 30 samples.

Results

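The primitive endoderm markers described here are 10 mouse genes, chosen by symbol from the tables of a nascent RNA study: the transcription factor genes Gata4, Gata6, Sox17 and Hnf4a, the receptor and endocytosis genes Pdgfra, Dab2 and Cubn, and the matrix genes Sparc, Col4a1 and Lama1. All 10 were found, among 55291 genes of the washout count table and 21859 genes of each time-course table. The study measured newly made RNA by TT-seq, in which RNA made during a pulse of 4-thiouridine (5 min per the labels) is fragmented, purified and sequenced, introns included. The cells were mouse E14 embryonic stem cells, a feeder-free line grown in serum with LIF, a GSK3 inhibitor and a MEK inhibitor. In the tagged cells SPT16, which belongs to the histone chaperone FACT, carries a V5 tag and an auxin-inducible degron, so that the auxin 3-indole-acetic acid (IAA) triggers its breakdown. The washout experiment had 4 libraries of tagged cells given 500 nM IAA for 12 h and 4 libraries of tagged cells given the vehicle ethanol (EtOH) for 12 h, all 8 harvested after 24 h without either. Each treatment was run in 2 independently targeted lines, 10E and 11D, and each line gave a Rep1 and a Rep2 library of each treatment. The time course had 22 libraries in 11 groups of 2: tagged cells given IAA for 3, 6 or 12 h, untagged parental cells given IAA for 3, 6 or 12 h, tagged cells given EtOH for 3, 6 or 12 h, and tagged and untagged cells at 0 h. Its groups rest on the sample titles, because other label fields contradict the titles for many libraries.

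Primitive endoderm is the extraembryonic layer that forms beside the pluripotent epiblast in the blastocyst and later lines the yolk sac. FGF4 made by epiblast-fated cells acts through FGF receptors and the MEK-ERK cascade to turn on GATA6, which opposes NANOG; GATA4, SOX17 and HNF4A follow as the lineage matures. Its cells carry PDGFRA, take up proteins through the cubilin and megalin receptors with the adaptor DAB2, and lay down a basement membrane of collagen IV and laminin. Embryonic stem cells under MEK inhibition keep this program low, and rare cells in a culture can still express it.

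Promoter sequences are shown for the members on which the results turn, so that the letters at their starts can be read beside the values. They are RefSeq windows of 250 bases before and 50 after an annotated start, build GRCm38.p6, written 5′ to 3′ on the strand of the gene. Such windows were at hand for 6 of the 10 members, and 5 windows are given: Dab2 and Cubn, the members with the largest washout changes, Hnf4a, which was negative in the time course, and the head-to-head pair Col4a1 and Col4a2. For Dab2 and Hnf4a, which have 2 windows each, the upstream one is shown. Capitals mark GATAA, the core of the motif of GATA factors, which reads TTATC on the opposite strand. They also mark GGGCGG, the GC box, which on the opposite strand is CCGCCC. The last motif marked is CCAAT, known as the CCAAT box, whose opposite strand reads ATTGG. No marked motifs overlap.
Dab2, chr15:6299539-6299838, plus strand: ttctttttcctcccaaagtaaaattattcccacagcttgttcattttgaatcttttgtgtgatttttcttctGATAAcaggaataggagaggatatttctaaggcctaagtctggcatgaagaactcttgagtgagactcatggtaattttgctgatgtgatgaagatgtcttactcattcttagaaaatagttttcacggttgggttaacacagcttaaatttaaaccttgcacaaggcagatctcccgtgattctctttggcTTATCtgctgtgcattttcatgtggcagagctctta
Cubn, chr2:13491827-13492126, minus strand: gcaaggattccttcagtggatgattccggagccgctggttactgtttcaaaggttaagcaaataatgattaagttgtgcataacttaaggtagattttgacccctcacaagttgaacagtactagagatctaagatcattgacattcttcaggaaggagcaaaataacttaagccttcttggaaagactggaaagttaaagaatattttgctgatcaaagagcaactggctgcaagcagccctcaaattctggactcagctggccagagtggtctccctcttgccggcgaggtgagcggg
Hnf4a, chr2:163506607-163506906, plus strand: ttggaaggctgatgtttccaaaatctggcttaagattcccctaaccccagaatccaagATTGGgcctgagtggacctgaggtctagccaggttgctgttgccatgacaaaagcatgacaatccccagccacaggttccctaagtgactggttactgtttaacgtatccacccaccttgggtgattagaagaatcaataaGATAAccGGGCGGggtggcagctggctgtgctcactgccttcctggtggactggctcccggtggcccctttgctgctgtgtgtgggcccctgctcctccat
Col4a1, chr8:11312777-11313076, minus strand: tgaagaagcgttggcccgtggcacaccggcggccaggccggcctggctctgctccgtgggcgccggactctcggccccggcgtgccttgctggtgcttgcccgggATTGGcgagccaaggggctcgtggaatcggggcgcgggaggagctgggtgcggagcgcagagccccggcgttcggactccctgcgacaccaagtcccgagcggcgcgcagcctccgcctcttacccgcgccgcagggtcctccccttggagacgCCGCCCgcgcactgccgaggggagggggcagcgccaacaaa
Col4a2, chr8:11312555-11312854, plus strand: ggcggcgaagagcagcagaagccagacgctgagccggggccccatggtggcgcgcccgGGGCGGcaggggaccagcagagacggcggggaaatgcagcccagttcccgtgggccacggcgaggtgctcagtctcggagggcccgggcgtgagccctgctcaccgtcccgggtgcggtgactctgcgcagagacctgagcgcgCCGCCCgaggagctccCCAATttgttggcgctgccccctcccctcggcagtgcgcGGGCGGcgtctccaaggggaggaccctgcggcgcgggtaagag
GATAA was found in 25.4% of all 32851 RefSeq promoter windows of this length, GGGCGG in 35.7% and CCAAT in 37.4%. The Dab2 window held GATAA at 2 places, and the Hnf4a window held it once, shortly before a GC box. No GATAA was found in the Cubn, Col4a1 or Col4a2 windows, nor in those of Pdgfra and Sparc or the downstream ones of Dab2 and Hnf4a. The starts of Col4a1 and Col4a2 lie 21 bases apart on opposite strands, and their windows share 78 bases. These matches describe letters in the windows and nothing further.

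The 8 washout libraries held 6547992 to 10978586 counts with IAA and 11068135 to 16554314 with EtOH, and the 18S ribosomal RNA locus took 20.8% to 29.3% of the counts in IAA and 5.73% to 9.27% in EtOH libraries. Whether Rep1 and Rep2 of a line were separate cultures is not stated, so the p-values reflect the scatter among libraries, which may be technical. Loss of the SPT16 protein is not visible in RNA; its gene Supt16 had a log2 fold change of 0.53 ± 0.18 (IAA over EtOH, edgeR adjusted p = 0.0658). The titles name Clone1 and Clone2 without saying which is 10E or 11D.

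The members ranged from moderately to barely transcribed. Levels between genes are compared here as CPM (counts scaled to library size) per kilobase of gene span, since whole genes were counted. Sparc, which encodes a collagen-binding matrix protein, was the highest, at 3.87 ± 0.30 CPM per kb in IAA and 2.54 ± 0.23 CPM per kb in EtOH libraries (SD, n = 4 each). Lama1, the alpha chain of the laminin of early basement membranes, followed at 1.08 ± 0.54 CPM per kb in IAA and 1.33 ± 0.64 CPM per kb in EtOH libraries. Hnf4a, a nuclear receptor of visceral endoderm and liver, came next at 0.413 ± 0.060 and 0.399 ± 0.082 CPM per kb in IAA and EtOH libraries. The libraries of these 3 genes did not overlap with one another in either treatment. In EtOH libraries 78.8% of the 15110 tested genes lay below Sparc on this scale, 60.0% below Lama1 and 30.9% below Hnf4a.

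The other 7 members were low. In EtOH libraries Gata4 (0.0776 CPM per kb), Sox17 (0.0696), Col4a1 (0.0539), Pdgfra (0.0475) and Gata6 (0.0357) followed in that order, and each overlapped its neighbour in this group over the libraries. Dab2 (0.00736 CPM per kb) lay below all of these, and Cubn (0.00184), with 0.430% of tested genes below it, lay below Dab2 without overlap. In IAA libraries Pdgfra led this group at 0.105 CPM per kb, Dab2 (0.0282) and Cubn (0.00878) were again the lowest, and every neighbour from Pdgfra down to Cubn overlapped the next. The reads behind the low members are few: a library held between 6 and 17 counts of Cubn, between 10 and 53 of Dab2 and between 26 and 55 of Pdgfra. Exons made up 5.21% to 21.8% of the gene span in 9 members and 74.3% in Sox17, so most of the span counted was intron for all but Sox17.

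**Figure D1:**
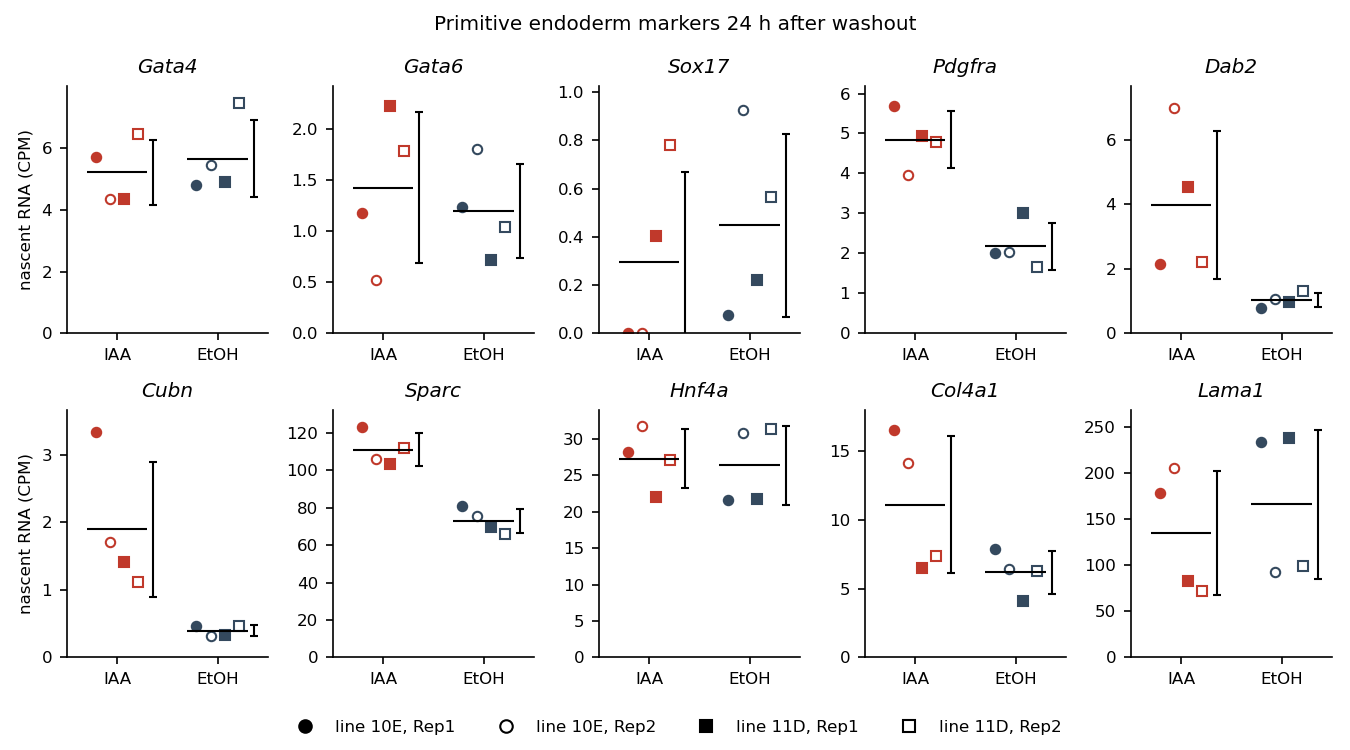
Nascent RNA of the 10 markers in each washout library, in CPM on linear axes from 0, IAA libraries left of EtOH libraries; circles are line 10E, squares line 11D, filled symbols Rep1, open symbols Rep2, the horizontal line the mean and the bar the SD (n = 4, cut at 0). Pdgfra, Dab2, Cubn and Sparc separate by treatment, Lama1 separates by Rep number in EtOH and by line in IAA, and the transcription factor genes overlap. The share of all tested genes that separate by treatment is not given.

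The washout comparison asks which genes still differ 24 h after the inducer is removed. Of the 10 markers, 9 passed the filter on low counts, and 4 of these rose in IAA libraries: Cubn, Dab2, Pdgfra and Sparc (edgeR quasi-likelihood test, two-sided, Benjamini-Hochberg adjusted p under 0.05). None fell, and DESeq2 also called none lower. Over all 15110 tested genes 8.83% rose and 7.6% fell at the adjusted threshold. At an unadjusted p under 0.05 (edgeR) there were 5 members, all higher, beside 32.3% of all tested genes in either direction. The median log2 fold change of the tested markers was 0.61, beside −0.05 over all tested genes. The markers were chosen with earlier results of these data known, so this contrast with all genes is a description and not a test. Scaling by raw library totals in place of TMM moved the median of all genes to −0.66; relative to that median Cubn, Dab2, Pdgfra and Sparc stood at 2.22, 1.95, 1.21 and 0.65, though without subtracting it Sparc stood at −0.01. With that scaling 433 genes rose and 7422 fell, and of the markers Cubn and Dab2 rose, Hnf4a (−0.60, edgeR adjusted p = 0.0310) and Lama1 (−0.95, adjusted p = 0.0352) fell, and Pdgfra (adjusted p = 0.165) and Sparc (adjusted p = 0.963) did not pass. In a bulk sample more cells of a type and more RNA per cell cannot be told apart.

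The receptors and the adaptor came first. Cubn encodes cubilin, the endocytic receptor for vitamin B12-intrinsic factor and other ligands at the apical surface of visceral endoderm. It stood at 3.33 and 1.71 CPM in the IAA libraries of line 10E and 1.41 and 1.11 CPM in those of line 11D, against 0.464 and 0.324 CPM in EtOH libraries of line 10E and 0.329 and 0.472 CPM in those of line 11D. All 4 IAA libraries lay above all 4 EtOH libraries, and the highest was line 10E Rep1. The log2 fold change was 2.18 ± 0.47 (SE, edgeR adjusted p = 0.00943), or 4.54-fold. The share of all tested genes whose treatments likewise do not overlap is not given here, for Cubn or for the genes below.

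Dab2 encodes the clathrin adaptor that links cubilin and megalin to endocytosis. It stood at 2.16 and 6.98 CPM in IAA libraries of line 10E and 4.54 and 2.22 CPM in those of line 11D, against 0.774 and 1.06 CPM in EtOH libraries of line 10E and 0.988 and 1.32 CPM in those of line 11D. The groups did not overlap, but the IAA libraries spread over a wide range, with line 10E Rep2 the highest. The log2 fold change was 1.93 ± 0.43 (edgeR adjusted p = 0.0110). Cubn and Dab2 passed the threshold under each of the 14 alternatives tried, with log2 fold changes of 1.82 to 2.38 for Cubn and 1.53 to 2.14 for Dab2.

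Pdgfra, the receptor of PDGF-A that marks primitive endoderm from its first cells, stood at 5.69 and 3.95 CPM in IAA libraries of line 10E and 4.94 and 4.78 CPM in those of line 11D. In EtOH libraries it stood at 2.01 and 2.04 CPM in line 10E and 3.02 and 1.65 CPM in line 11D. The groups did not overlap, and the log2 fold change was 1.14 ± 0.30 (edgeR adjusted p = 0.0223). The call was close to the threshold. It ended, with adjusted p of 0.0505 to 0.0598, when line 10E EtOH Rep1 or Rep2, 10E IAA Rep1, 11D EtOH Rep2 or 11D IAA Rep1 was left out, and with line and Rep number as a block (adjusted p = 0.0655).

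Among the matrix genes, Sparc had 123 and 106 CPM in IAA libraries of line 10E and 103 and 112 CPM in those of line 11D. In EtOH libraries it had 80.9 and 75.3 CPM in line 10E and 69.7 and 65.9 CPM in line 11D. It had the tightest replicates of the members that rose, and its groups did not overlap. The log2 fold change was 0.61 ± 0.15 (edgeR adjusted p = 0.0166), or 1.52-fold. Without line 10E IAA Rep1 the adjusted p was 0.0559, with no filter on low counts 0.0519 and with line and Rep number as a block 0.0663.

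Col4a1, a chain of the collagen IV network, had 16.5 and 14.1 CPM in IAA libraries of line 10E and 6.46 and 7.34 CPM in those of line 11D. In EtOH libraries it had 7.89 and 6.43 CPM in line 10E and 4.06 and 6.27 CPM in line 11D. The 2 IAA libraries of line 10E lay above every other library, and those of line 11D lay within the EtOH range. Over both lines the log2 fold change was 0.83 ± 0.33, which did not pass (edgeR adjusted p = 0.100). In the authors' deposited table for the washout, Col4a1 passed with a log2 fold change of 0.77 (adjusted p = 0.0419); the authors' deposited table called Cubn, Dab2, Pdgfra and Sparc as well, where 8.96% of its genes were called higher and 7.05% lower.

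Lama1 split the libraries in another way. It had 179 and 206 CPM in IAA libraries of line 10E and 82.9 and 72.1 CPM in those of line 11D, against 234 and 93.2 CPM in EtOH libraries of line 10E and 238 and 99.7 CPM in those of line 11D. The EtOH libraries differed by Rep number, Rep1 being high in both lines, whereas the IAA libraries differed by line. Across all tested genes the deviations of the EtOH libraries from their line means were shared between the lines (r = 0.753 over 15110 genes, which are not independent replicates), while those of the IAA libraries were not (r = −0.290). The part of this difference between Rep1 and Rep2 in the values of Lama1 was not tested. Over both lines the log2 fold change was −0.30 ± 0.40 (edgeR adjusted p = 0.637); between Rep1 libraries alone the log2 ratio of the means was −0.85, and between Rep2 libraries alone it was 0.53.

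The transcription factor genes did not pass in the washout. Gata4, a zinc finger factor of extraembryonic endoderm and heart, had 5.69, 4.35, 4.34 and 6.45 CPM in IAA libraries and 4.80, 5.46, 4.88 and 7.45 CPM in EtOH libraries. Here and where 4 values are listed further on, they are in the order line 10E Rep1 and Rep2, then line 11D Rep1 and Rep2. Its log2 fold change was −0.12 ± 0.27 (edgeR adjusted p = 0.784). Hnf4a had 28.2, 31.8, 22.1 and 27.1 CPM in IAA libraries and 21.6, 30.8, 21.7 and 31.4 CPM in EtOH libraries, with a log2 fold change of 0.05 ± 0.19 (edgeR adjusted p = 0.889). Both genes overlapped widely between treatments.

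Gata6, the factor that starts the lineage, had 1.18 and 0.527 CPM in IAA libraries of line 10E and 2.22 and 1.78 CPM in those of line 11D. In EtOH libraries it had 1.24 and 1.80 CPM in line 10E and 0.713 and 1.04 CPM in line 11D. The values ran in opposite directions in the 2 lines, and over both lines the log2 fold change was 0.28 ± 0.47 (edgeR adjusted p = 0.721). Sox17, an SRY-box factor of endoderm, was counted at 0 in both IAA libraries of line 10E, where 3 counts would be 0.588 and 0.395 CPM, and at 0.403 and 0.778 CPM in those of line 11D. It had 0.0773 and 0.925 CPM in EtOH libraries of line 10E and 0.220 and 0.566 CPM in those of line 11D. The filter on low counts kept Sox17 out of the edgeR test. In the authors' deposited table for the washout it stood at a log2 fold change of −1.14 ± 1.20 (SE, adjusted p = 0.573).

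**Figure D2:**
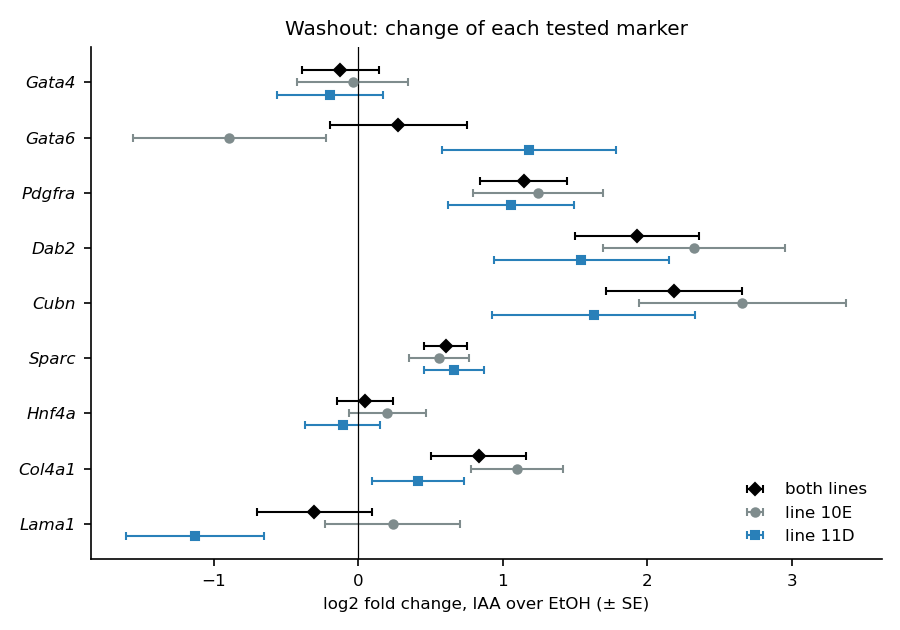
Log2 fold change of the 9 tested markers in the washout, IAA over EtOH, with bars of ± 1 SE; diamonds are both lines, circles line 10E and squares line 11D (edgeR). Cubn, Dab2, Pdgfra, Sparc and Col4a1 lie right of 0 in both lines, and Gata4 lies left of 0 in both. Gata6, Hnf4a and Lama1 lie on opposite sides of 0 in the 2 lines.

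Within the lines the same test was run on each pair of duplicates, with the spread estimated over all 8 libraries. In line 10E 3 of the 9 tested markers rose, Cubn (log2 fold change 2.66 ± 0.72, edgeR adjusted p = 0.0296), Dab2 (2.32 ± 0.63, adjusted p = 0.0303) and Col4a1 (1.10 ± 0.32, adjusted p = 0.0363), and none fell. Over all 16517 tested genes of this fit 8.58% rose and 8.66% fell in that line. In line 11D no marker passed, where 1.64% of all tested genes rose and 1.01% fell, and DESeq2 called no marker. At an unadjusted p under 0.05 (edgeR) there were 5 markers, beside 18.4% of all tested genes in that line. There the log2 fold changes were 1.63 ± 0.70 for Cubn, 1.54 ± 0.61 for Dab2, 1.06 ± 0.43 for Pdgfra, 0.66 ± 0.21 for Sparc and −1.13 ± 0.48 for Lama1. Calls within line 10E rest on few libraries: no marker passed without 10E EtOH Rep1, 10E EtOH Rep2 or 10E IAA Rep2, and Dab2 alone passed without 10E IAA Rep1, 11D IAA Rep1 or 11D IAA Rep2.

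The difference between the lines was tested by the interaction of line and treatment. No marker passed and 0.0% of the 16517 genes did (edgeR), with 2345 genes at an unadjusted p under 0.05; DESeq2 called 35 and 101 genes in the 2 directions and no marker. Among the tested markers Gata6 had the largest interaction, a log2 difference of 2.07 ± 0.90 between line 11D and line 10E (unadjusted p = 0.0403, edgeR adjusted p = 0.333). That of Lama1 was −1.37 ± 0.67 (edgeR adjusted p = 0.381), and with no filter on low counts it passed (−1.35 ± 0.38, adjusted p = 0.0345). In that setting 183 and 238 of 31329 genes passed in the 2 directions. The EtOH libraries of the 2 lines were also compared: no marker passed and 0.0% of all genes did (edgeR; DESeq2 called 0), with 405 genes and no marker at an unadjusted p under 0.05.

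The partners of these genes were taken from lists of known members. Of 28 other genes of primitive endoderm and visceral endoderm, 9 passed the filter on low counts, with a median log2 fold change of 0.12. Of these, 1 rose and 1 fell, where 8.83% of all tested genes rose and 7.6% fell. The gene that rose was Lrp2, which encodes megalin, the receptor that works with cubilin and DAB2. Lrp2 had 40.6, 44.9, 36.6 and 31.6 CPM in IAA libraries, against 8.20, 12.8, 10.4 and 14.9 CPM in EtOH libraries, and the groups were well apart. Its log2 fold change was 1.72 ± 0.21 (edgeR adjusted p = 0.000434), and it passed under all 14 alternatives. Srgn, the proteoglycan serglycin of parietal endoderm and blood cells, fell, with a log2 fold change of −1.87 ± 0.56 (edgeR adjusted p = 0.0404). The call of Srgn ended without 10E EtOH Rep2, 10E IAA Rep1, 10E IAA Rep2 or 11D EtOH Rep2. Cer1 and S100g, other endoderm genes of the list, had 0 counts in all 8 libraries, and 8 genes of the list averaged under 0.1 CPM.

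Of 18 basement membrane partners, all tested, 2 rose and none fell, with a median log2 fold change of 0.33. These counts stand beside 8.83% of all tested genes that rose and 7.6% that fell. Plod3, a collagen lysyl hydroxylase and glycosyltransferase, rose by a log2 fold change of 1.12 ± 0.25 (edgeR adjusted p = 0.0110). P4hb, the protein disulfide isomerase that is also a subunit of collagen prolyl 4-hydroxylase, rose by 0.85 ± 0.22 (edgeR adjusted p = 0.0207), a call that ended without 10E IAA Rep1 (adjusted p = 0.0709). The chain genes themselves did not pass over both lines. Col4a2, which shares its start region with Col4a1, had a log2 fold change of 0.47 ± 0.32 (edgeR adjusted p = 0.320). Those of the laminin chains Lamb1 and Lamc1 were 0.76 ± 0.45 (edgeR adjusted p = 0.270) and 0.65 ± 0.24 (edgeR adjusted p = 0.0888).

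Library by library, the highest values of these chains were in line 10E. Col4a2 had 9.81 and 11.3 CPM in IAA libraries of line 10E and 7.26 and 3.67 CPM in those of line 11D, against 5.88, 6.66, 4.77 and 5.57 CPM in EtOH libraries. Lamb1 had 27.7 and 17.8 CPM in IAA libraries of line 10E and 8.27 and 5.00 CPM in those of line 11D, against 11.7, 7.50, 9.88 and 5.28 CPM in EtOH libraries. Like Col4a1, both were highest in the IAA libraries of line 10E. Lamc1, the gamma chain, was far higher, at 5.08 ± 1.50 CPM per kb in IAA and 3.25 ± 0.83 CPM per kb in EtOH libraries (SD, n = 4 each). Within line 10E it rose (log2 fold change 1.00 ± 0.30, edgeR adjusted p = 0.0437). The interaction of line and treatment did not pass for Lamb1 (edgeR adjusted p = 0.308), Lamc1 (adjusted p = 0.412) or Col4a2 (adjusted p = 0.570).

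**Figure D3:**
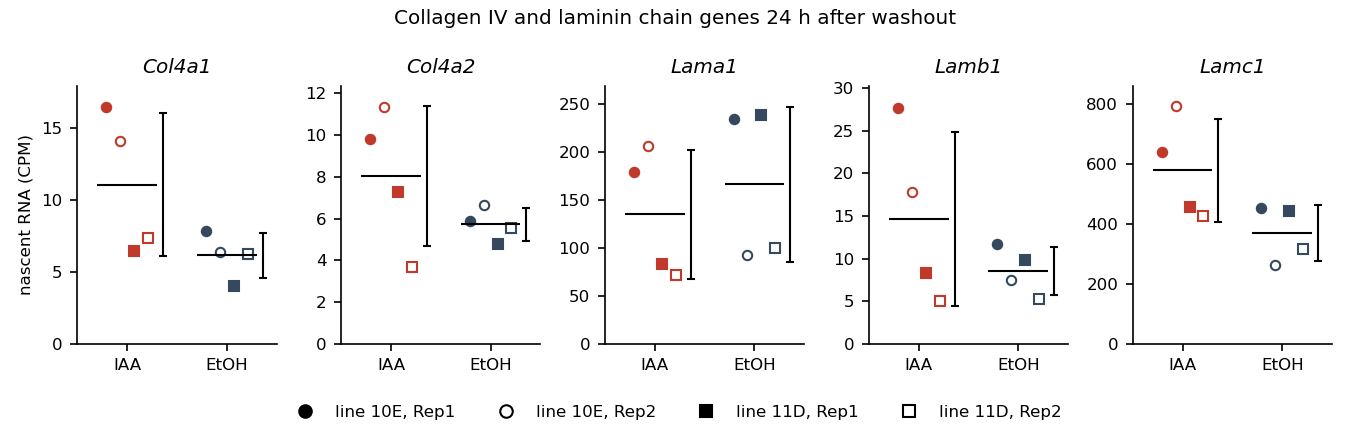
Nascent RNA of collagen IV and laminin chain genes in each washout library, in CPM on linear axes from 0, IAA left of EtOH; circles are line 10E, squares line 11D, filled symbols Rep1, open symbols Rep2, the horizontal line the mean and the bar the SD (n = 4). In IAA the circles lie above the squares in every panel; in EtOH the filled symbols lie above the open ones for Lama1, Lamb1 and Lamc1.

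The signals that turn the lineage on or off were followed in a list of 16 genes, all tested, of which 3 rose and 1 fell (median log2 fold change 0.14). Among all tested genes 8.83% rose and 7.6% fell. Fgf4, the ligand that induces primitive endoderm, fell: it had 51.6, 40.5, 51.4 and 56.7 CPM in IAA libraries, against 121, 153, 98.6 and 92.9 CPM in EtOH libraries. All IAA libraries lay below all EtOH libraries (log2 fold change −1.22 ± 0.19, edgeR adjusted p = 0.00192), and the call held under all 14 alternatives. Etv4, a transcription factor induced by FGF-ERK signalling, rose, with a log2 fold change of 1.78 ± 0.48 (edgeR adjusted p = 0.0284); it did not pass without 10E EtOH Rep2, 10E IAA Rep1 or 10E IAA Rep2. The FGF receptor gene Fgfr1 (log2 fold change 0.55 ± 0.17, edgeR adjusted p = 0.0423) and the phosphatase gene Ptpn11 (0.56 ± 0.16, adjusted p = 0.0322) rose too. The call of Fgfr1 ended with line as a block (adjusted p = 0.0599), with line and Rep number as a block (0.127) and with no filter on low counts (0.0926). That of Ptpn11 ended with line and Rep number as a block (adjusted p = 0.103) and with no filter (0.0904), and that of Srgn with line and Rep number as a block (0.0593). Leaving out 1 library ended the call of Fgfr1 in 7 of 8 cases, all but 10E IAA Rep2, and that of Ptpn11 in 6 of 8, all but 10E EtOH Rep1 and 11D IAA Rep1.

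Markers of other cell types were counted in the same libraries. Their calls stand beside the 8.83% of all tested genes that rose and the 7.6% that fell. Of 12 markers of pluripotent cells, 11 were tested and none passed (edgeR), and their summed level was 3217 to 3686 CPM in IAA and 2818 to 4771 CPM in EtOH libraries. Sox2 was at 0 in every library, and its gene lies within Sox2ot on the same strand, where reads shared by overlapping genes were not assigned. Of 10 markers of mesoderm and definitive endoderm, 4 were tested and 1 rose: Kdr, the VEGF receptor of blood and vessel precursors, had a log2 fold change of 1.93 ± 0.40 (edgeR adjusted p = 0.00762). That list summed to 9.78 to 22.2 CPM in IAA and 8.35 to 13.9 CPM in EtOH libraries, with Cer1 and Mesp1 at 0. None of the 7 tested of 11 trophoblast markers passed, and the list summed to 214 to 277 CPM in IAA and 210 to 351 CPM in EtOH libraries. Most of that sum was Tead4, at 181 to 245 CPM in IAA and 182 to 321 CPM in EtOH libraries. Of 9 fibroblast markers only Fn1 was tested, and it did not pass (log2 fold change 0.65 ± 0.22, edgeR adjusted p = 0.0565). The list summed to 504 to 950 CPM in IAA and 422 to 514 CPM in EtOH libraries. Nearly all of this was Fn1, at 501 to 948 CPM in IAA and 420 to 513 CPM in EtOH libraries. Of the fibroblast list, 4 genes averaged under 0.1 CPM. Of 6 neural markers 1 was tested and did not pass, with sums of 15.7 to 18.7 CPM in IAA and 7.30 to 29.5 CPM in EtOH libraries. Most of these sums was Nes, the tested marker, at 13.2 to 17.6 CPM in IAA and 6.70 to 29.1 CPM in EtOH libraries. Sox1 was at 0 in every washout library, but it lies within Sox1ot on the same strand, and the authors' deposited tables give it mean counts of 165 at 0 h, 159 at 3 h, 119 at 6 h and 132 at 12 h. Sparc, Pdgfra and Col4a1 are also expressed by fibroblasts and mesoderm, and the part of such cells in their values was not tested.

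The genes whose pattern over the 8 libraries was most like that of each member were found by the root mean square difference of centred log2(CPM + 0.5) values, among 12662 genes that averaged at least 1 CPM. Those most like Cubn were Zscan4e (0.103, where the median gene differed from Cubn by 0.819) and Zscan4f (0.119), members of a cluster known for transient expression in 2-cell embryos and in rare embryonic stem cells. Zscan4e averaged 2.64 CPM in IAA and 0.689 CPM in EtOH libraries. Cubn and Zscan4f averaged 0.397 and 0.323 CPM in EtOH libraries, below the 0.5 CPM added before the log. Likeness at such low counts is imprecise, and a link between these genes was not tested. Those most like Dab2 were Kcnq5 (0.256), a potassium channel gene, and the pseudogene Zscan4-ps3 (0.257), against a median of 0.906. The Zscan4 genes are near-identical copies, so their values are those of the name as counted. Pdgfra was most like Ptprz1 (0.136) and Utp15 (0.144), and Sparc most like Mvp (0.0691) and Npr1 (0.0808). Gata6 was most like Hhex (0.139), a homeobox gene of endoderm, and Plpbp (0.158). The nearest genes were Arv1 and Il17d for Gata4, Ero1l and Lrrc51 for Hnf4a, Lrrn4 and Fat3 for Col4a1, and Csmd2 and Ntrk3 for Lama1. Between members the most alike were Gata4 and Hnf4a (0.237) and Pdgfra and Sparc (0.297).

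The time course follows nascent RNA while SPT16 is being lost. It is read from the authors' deposited tables, which give 1 shrunken log2 fold change per gene and time without stating the groups or the direction compared, so values are called positive or negative as signed. At 0 h the authors' deposited table gave 9 members an adjusted p and none passed, where 0.0201% of genes were positive and 0.355% negative. Gata4 had the smallest p there (unadjusted p = 0.00811, adjusted p = 0.565), and all shrunken changes were close to 0. At 3 h the authors' deposited table gave 5 members an adjusted p and none passed, where 0.531% of genes were positive and 0.0458% negative. At 6 h it was 7, and none passed in the authors' deposited table, where 1.71% were positive and 1.39% negative; Hnf4a, at −0.38 ± 0.40, had an adjusted p of 0.189. The authors' deposited tables left the adjusted p of Gata6, Sox17 and Cubn empty at 3 and 6 h, and those of Pdgfra and Dab2 at 3 h.

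At 12 h the authors' deposited table gave all 10 members an adjusted p, and 2 were positive and 2 negative, where 8.58% of genes were positive and 12.1% negative. The median of the members was 0.09, beside 0.01 over all genes. In the authors' deposited table Dab2 was at 1.72 ± 0.51 (SE, adjusted p = 0.00113) and Pdgfra at 1.03 ± 0.46 (adjusted p = 0.0240). The negative members of the authors' deposited table were Hnf4a, at −1.37 ± 0.35 (adjusted p = 0.000230), and Lama1, at −1.14 ± 0.47 (adjusted p = 0.0108). Dab2 and Pdgfra thus stood among the called genes both at 12 h and after washout, whereas Hnf4a and Lama1 were called at 12 h and did not pass after washout; whether the 2 experiments differ in these genes was not tested.

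The remaining members were not called at 12 h. Sparc was at 0.15 ± 0.18 at 3 h, 0.25 ± 0.24 at 6 h and 0.41 ± 0.35 at 12 h in the authors' deposited tables, and its adjusted p was 0.279 at the last of these. Cubn, with a mean normalised count of 7.58 in the authors' deposited table, was at 0.13 ± 0.44 (adjusted p = 0.709). The authors' deposited table put Gata4 at −0.03 ± 0.33, Gata6 at 0.06 ± 0.43, Sox17 at 0.21 ± 0.52 and Col4a1 at −0.03 ± 0.25. Of the laminin partners of Lama1, Lamb1 was at 0.33 ± 0.29 and Lamc1 at −0.18 ± 0.21, and Col4a2 was at −0.43 ± 0.29, none of them called in the authors' deposited table.

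**Figure D4:**
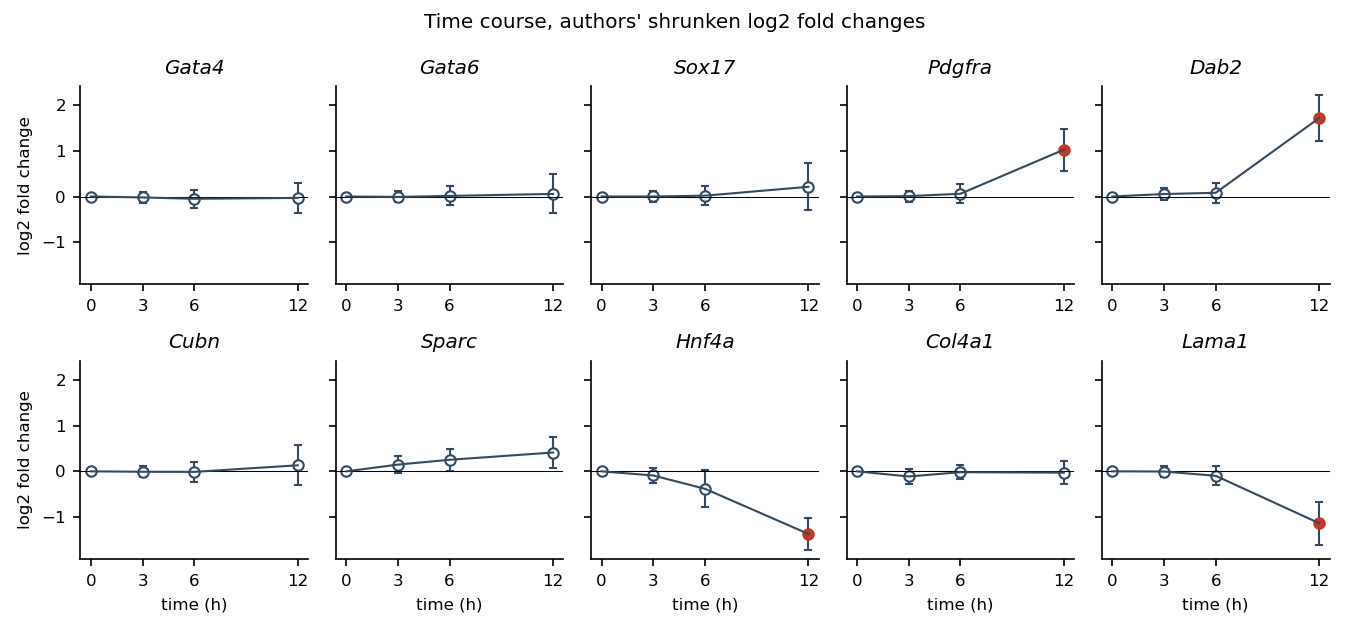
The authors' shrunken log2 fold changes of the 10 markers at 0, 3, 6 and 12 h, as signed in the authors' deposited tables, with bars of ± 1 SE; filled red points have an adjusted p under 0.05. The called values, Pdgfra at 1.03, Dab2 at 1.72, Hnf4a at −1.37 and Lama1 at −1.14, are all at 12 h.

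Around the members at 12 h, other genes of the lists were called in the authors' deposited table. Of 28 other primitive endoderm genes, 22 had an adjusted p and 3 were positive. Lrp2 was at 1.27 ± 0.28 (adjusted p = 3.23e-05), the apolipoprotein gene Apob at 2.56 ± 0.70 (adjusted p = 0.000487) and the forkhead gene Foxq1 at 2.25 ± 1.72 in the authors' deposited table. Of the 16 signal genes 7 were negative and none positive, with a median of −0.57. They included Fgf4 at −0.89 ± 0.31 and Etv5, an ERK-induced factor, at −1.36 ± 0.27, with Prdm14 at −1.07, Fgfr2 at −0.78 and Nanog at −0.77 in the authors' deposited table. Of 18 basement membrane partners 2 were positive, Plod3 at 0.90 ± 0.45 and Plod1 at 0.80 ± 0.38 in the authors' deposited table. Set beside the 8.58% of all genes positive and 12.1% negative at 12 h, 5 of 12 pluripotency markers were negative, 2 of 7 mesoderm and definitive endoderm markers with an adjusted p were positive (Cxcr4 at 2.67 and Kdr at 2.27), 3 of 5 neural markers were positive and 1 of 9 trophoblast markers was negative in the authors' deposited table. Fibroblast markers had no call among 5.

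Transcripts upstream of promoters (PROMPTs) could hardly be read for these genes. Of the 10 markers, 9 had an entry in the authors' deposited PROMPT tables, and between 2 and 4 of them had a mean count above 0 at a given time. The highest was that of Lama1, with a mean count of 3.39 at 0 h, 2.02 at 3 h, 3.31 at 6 h and 1.90 at 12 h in the authors' deposited tables, and none was called.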

How the data were processed

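TT-seq was run on 30 libraries, 8 of the washout and 22 of the time course, and members and gene lists were chosen with earlier results of these data known. For the washout the authors deposited raw counts (read pairs assigned to each gene), per the file headers made with featureCounts 2.0.1 over whole genes, summed by name, on the reverse strand. Per the submitters' processing notes STAR, deepTools and the mm10 build were used, with no versions given. The time-course values are the authors' own: the deposited tables give log2 fold changes in shrunken form with their SE, p-values with adjusted p-values, and a mean normalised signal per gene over libraries. Their groups are not given in the sources used here. Coordinates are 1-based, from the count table and GENCODE M21.

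Counts were tested with edgeR 4.0.16 (R 4.3.3; quasi-likelihood, robust, two-sided, TMM, filterByExpr, Benjamini-Hochberg over all tested genes, threshold 0.05), 4 IAA against 4 EtOH libraries; line terms used a fit with 4 line and treatment groups. The scripts were tested on simulated data. DESeq2 1.42.0, RLE scaling, no filter, each library left out, removal of the 18S rRNA locus, and blocks by line or by line and Rep number were alternatives. CPM uses TMM-scaled library sizes, and no interval is given for counting error beyond the SD and SE. Since both lines received both treatments, line is a pairing by design; differences between the lines in IAA and EtOH libraries correlated at r = −0.189 over genes. Named genes were the 10 members, Col4a2, Lamb1 and Lamc1, up to 5 called genes per list and direction, and the 2 genes most like each member in pattern. Other genes were named for a check of labels or markers, after their values were seen. Cell type lists were pluripotent, trophoblast, mesoderm and definitive endoderm, fibroblast and neural markers. A called gene of the lists is not reported here. The eRNA and DHS tables were not used here.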

Additional observations from a re-analysis of the deposited data

How the results depend on the processing

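The washout calls of Cubn and Dab2 held under all 14 alternatives. The count of markers called higher, 4, was 2 with line and Rep number as a replicate block and ran from 2 to 4 when each library was left out; with line alone as the block it was 4. Raw library totals, added after seeing the data, gave 2 markers higher and 2 lower. The labels do not say that Rep numbers pair libraries: same-numbered IAA and EtOH libraries deviated together at r = 0.01 in line 10E and −0.23 in line 11D over genes, and a block with crossed numbers, added after seeing the data, called 1033 genes higher and 819 lower, with 4 markers higher. The count called within line 10E, 3, ran from 0 to 3 when each library was left out. With no filter on low counts 1 marker, Lama1, passed the line interaction, where 183 and 238 of 31329 genes passed in the 2 directions. Lama1 was also the 1 marker lower within line 11D in that setting, beside 709 genes lower and 594 higher. Without 11D EtOH Rep2 its log2 fold change in line 11D was −1.64. Uncalled changes near 0 turned sign in places: leaving out each library, Gata4 ran from −0.247 to 0.0366, Gata6 from −0.00749 to 0.557 and Hnf4a from −0.0377 to 0.160, and with no filter Hnf4a was at −0.0136. Adjusting the time-course p-values over other gene sets left the counts of markers at each time as they were. Beyond what the settings themselves remove, the cause was not tested. Precision is lowest for Sox17, Gata6 and Cubn, which had at most 39 counts in a library.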
